A study of Caenorhabditis elegans with 2 samples.

Results

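Small nucleolar RNA (snoRNA) genes that lie wholly inside a protein-coding gene were examined for binding of the zinc finger protein ZTF-4 of C. elegans. Of 346 snoRNA genes in the Ensembl annotation of the WBcel235 assembly, which is ce11, 216 met this rule and were spread over 188 protein-coding hosts, while 130 lay outside such genes. The ChIP-seq experiment used whole L3 larvae, with the sexes pooled, of strain OP322, in 1 group of 2 biological replicates. All animals carried the integrated transgene wgIs322, which expresses ZTF-4 fused to eGFP, together with the mutation unc-119(ed3); the sources used here do not give the promoter of the transgene. The labels call the material whole organisms and the insertion one that targets ztf-4 (a possible control is listed, with its strain not given in the sources used here). Library fragments ran from 150 to 350 bp.

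The data were 4 lists of enriched regions, each region with a signal value (enrichment in the authors' unit, not defined in the sources used here) and a summit, its most enriched base. The replicate lists held 29249 regions for replicate 1 and 30000 for replicate 2, and a pooled list from both together held 30000. Regions that passed the irreproducible discovery rate, IDR, numbered 678 in the nuclear genome and 26 in the mitochondrial genome. They were the strongest regions of the pooled list, with signals down to 35.9. Read depth is unknown, and all intervals below are Wilson 95% intervals that cover counting error over genes or regions only. Where a replicate is used alone, its top list is made of as many of its strongest regions as the IDR list holds.

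snoRNAs guide the chemical modification of ribosomal RNA and other RNAs in the nucleolus: box C/D snoRNAs direct methylation of ribose, and box H/ACA snoRNAs direct the conversion of uridine to pseudouridine. A snoRNA inside a host gene can be cut out of the host's spliced intron, or it can be transcribed from a promoter of its own. Transfer RNA genes are transcribed by RNA polymerase III from a promoter that lies inside the transcribed part and consists of a box A and a box B, and in C. elegans some snoRNA genes have such boxes just before them.

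IDR summits near these genes lay mostly at 2 kinds of place. In the first kind the summit was at the snoRNA gene itself, 333 to 16019 bp from the host's 5' end. The 100 bases that run up to the 5' end of the snoRNA are given for 8 such genes, on the strand of the snoRNA and 5' to 3', because they hold the box pair described further on; capitals mark box A and box B, and the last base printed is the one before the snoRNA. All sequences are from the RefSeq copy of WBcel235.
C27H6.5: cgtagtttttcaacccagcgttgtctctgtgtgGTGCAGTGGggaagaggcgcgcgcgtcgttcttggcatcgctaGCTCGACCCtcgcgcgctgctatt
C27H5.9: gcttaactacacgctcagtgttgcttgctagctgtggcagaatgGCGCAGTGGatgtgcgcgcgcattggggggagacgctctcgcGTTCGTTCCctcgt
M106.6: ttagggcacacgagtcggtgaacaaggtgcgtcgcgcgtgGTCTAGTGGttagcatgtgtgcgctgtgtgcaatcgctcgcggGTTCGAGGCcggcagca
D1046.6: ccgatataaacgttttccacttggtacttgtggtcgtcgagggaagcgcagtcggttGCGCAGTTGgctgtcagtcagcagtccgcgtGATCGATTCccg
Y43F8C.22: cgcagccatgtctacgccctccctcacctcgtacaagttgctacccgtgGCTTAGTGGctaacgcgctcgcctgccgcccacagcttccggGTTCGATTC
C04G6.12: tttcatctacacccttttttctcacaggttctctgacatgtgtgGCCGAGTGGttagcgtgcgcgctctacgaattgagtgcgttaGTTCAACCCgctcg
F11A10.9: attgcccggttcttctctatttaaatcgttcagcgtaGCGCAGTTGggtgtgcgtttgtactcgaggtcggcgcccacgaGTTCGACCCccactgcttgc
T03F7.8: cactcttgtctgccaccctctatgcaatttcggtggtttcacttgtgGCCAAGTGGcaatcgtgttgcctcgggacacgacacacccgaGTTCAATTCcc
These 100-base stretches lie at chrV:9970272-9970371 (C27H6.5, minus strand), chrII:7184079-7184178 (C27H5.9, minus), chrII:10840217-10840316 (M106.6, plus), chrIV:8927165-8927264 (D1046.6, plus), chrV:19643188-19643287 (Y43F8C.22, minus), chrII:5105232-5105331 (C04G6.12, minus), chrIV:12086609-12086708 (F11A10.9, plus) and chrV:11314158-11314257 (T03F7.8, plus). Each of the 8 is in an intron of its host.

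The same stretch is given for 4 genes that also had the summit at the snoRNA but no box pair under the rule used here. No letters are in capitals. The rule, given further on, allows at most 1 mismatch in each box, and some of these stretches miss it narrowly. F55A11.10 and W08G11.6 hold a box B within that limit and a box A with 2 mismatches. T04A8.17 holds a box A with 1 mismatch and a box B with 2. They lie at chrV:8500479-8500578 (ZK994.7, plus), chrV:11782892-11782991 (F55A11.10, plus), chrV:16370119-16370218 (W08G11.6, plus) and chrIII:4689772-4689871 (T04A8.17, minus).
ZK994.7: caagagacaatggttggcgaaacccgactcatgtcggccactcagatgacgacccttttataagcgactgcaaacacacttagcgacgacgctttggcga
F55A11.10: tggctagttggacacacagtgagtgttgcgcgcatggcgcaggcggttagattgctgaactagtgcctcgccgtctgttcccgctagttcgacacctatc
W08G11.6: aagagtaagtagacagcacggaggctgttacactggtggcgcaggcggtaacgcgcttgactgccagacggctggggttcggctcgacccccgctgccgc
T04A8.17: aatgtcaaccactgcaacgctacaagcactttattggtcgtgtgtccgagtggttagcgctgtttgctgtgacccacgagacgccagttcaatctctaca

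In the second kind the summit lay in front of the host gene, and the snoRNA followed, in the host's first intron except at fbxl-1. The summit base with 50 bases to either side is given for 3 of these, on the strand of the snoRNA, which is also that of the host. They lie at chrII:10563514-10563614 (before cdc-48.1, minus), chrIII:5679103-5679203 (before rps-12, plus) and chrV:10353270-10353370 (before nol-56, minus).
C06A1.9 summit: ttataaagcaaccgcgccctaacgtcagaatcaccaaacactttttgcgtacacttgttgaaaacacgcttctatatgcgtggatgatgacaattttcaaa
F54E7.10 summit: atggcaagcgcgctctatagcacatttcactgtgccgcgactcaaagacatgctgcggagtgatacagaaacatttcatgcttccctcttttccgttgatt
K07C5.11 summit: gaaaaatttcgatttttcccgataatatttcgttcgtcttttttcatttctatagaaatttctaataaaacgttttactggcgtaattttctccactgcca

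Of the 216 snoRNA genes inside hosts, 25 had a summit of the IDR list no more than 500 bp from their 5' end, or 11.6% (interval 7.96 to 16.5%). The same share was 1.66% over 19973 nuclear protein-coding genes, 2.19% over 3934 other non-coding genes inside protein-coding genes and 17.7% over the 130 snoRNA genes outside them. Nuclear tRNA genes stood at 7.19% of 612. Those inside protein-coding genes are also part of the 3934, of which 3644 were not tRNA genes. Within 100 bp the count was 17, or 7.87%, against 0.335% of protein-coding genes, 1.17% of other non-coding genes inside hosts, 14.6% of snoRNA genes outside and 5.39% of tRNA genes. Of all bases of protein-coding genes, 0.547% lay within 500 bp of an IDR summit. The share of snoRNA genes inside hosts thus lay well above that of protein-coding starts and of other non-coding genes inside hosts. It was lower than the share of snoRNA genes outside, but that share, over only 130 genes, has a counting error of its own. The 2 snoRNA classes were not tested against each other.

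In the longer lists the ratio to protein-coding genes was smaller. A pooled summit lay within 500 bp of 119 of the 216 genes, or 55.1%, against 28.6% of protein-coding genes, 35.6% of other non-coding genes inside hosts and 61.5% of snoRNA genes outside. Within 100 bp the count was 60, or 27.8%, against 7.41% of protein-coding genes. Replicate 1 had a summit within 500 bp of 122 genes (56.5%), against 29.4% of protein-coding genes and 36.6% of other non-coding genes inside hosts. Replicate 2 had one at 124 (57.4%), against 28.9% and 34.7% of the same classes. In both replicates 96 genes had one. At 64 genes, 29.6%, none of the 4 lists had a summit. Neither of these counts was made over other classes of gene, so they have no background here and are not read as unusual. Among the 119 genes with a pooled summit, 25 had one that passed IDR, or 21.0% (interval 14.7 to 29.2%), against 5.8% of the 5707 protein-coding genes with a pooled summit, 6.14% of such other non-coding genes inside hosts and 28.8% of such snoRNA genes outside.

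Each replicate on its own gave a like share. Summits in the top list of replicate 1 lay within 500 bp of 18 of the genes (8.33%), against 1.42% of protein-coding genes and 1.86% of other non-coding genes inside hosts. Summits in the top list of replicate 2 lay within 500 bp of 20 (9.26%), against 1.53% and 2.08%. The genes reached in both top lists numbered 7, a count that was not made for the other classes.

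Summits gathered at the snoRNA 5' end. In the pooled list the 100 bp just upstream of the 5' end held 34 summits over all 216 genes and the 100 bp just downstream 25, while the other 8 bins out to 500 bp held 9 to 13 each; summits spread evenly over the genome would give 6.46 per bin. In the IDR list these 2 central bins held 11 and 6, and the others 0 to 3, against 0.146 per bin from an even spread. Replicate 1 had 27 and 25 in the central bins and 8 to 18 elsewhere, and replicate 2 had 30 and 25, with 9 to 17 elsewhere.

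**Figure D1:**
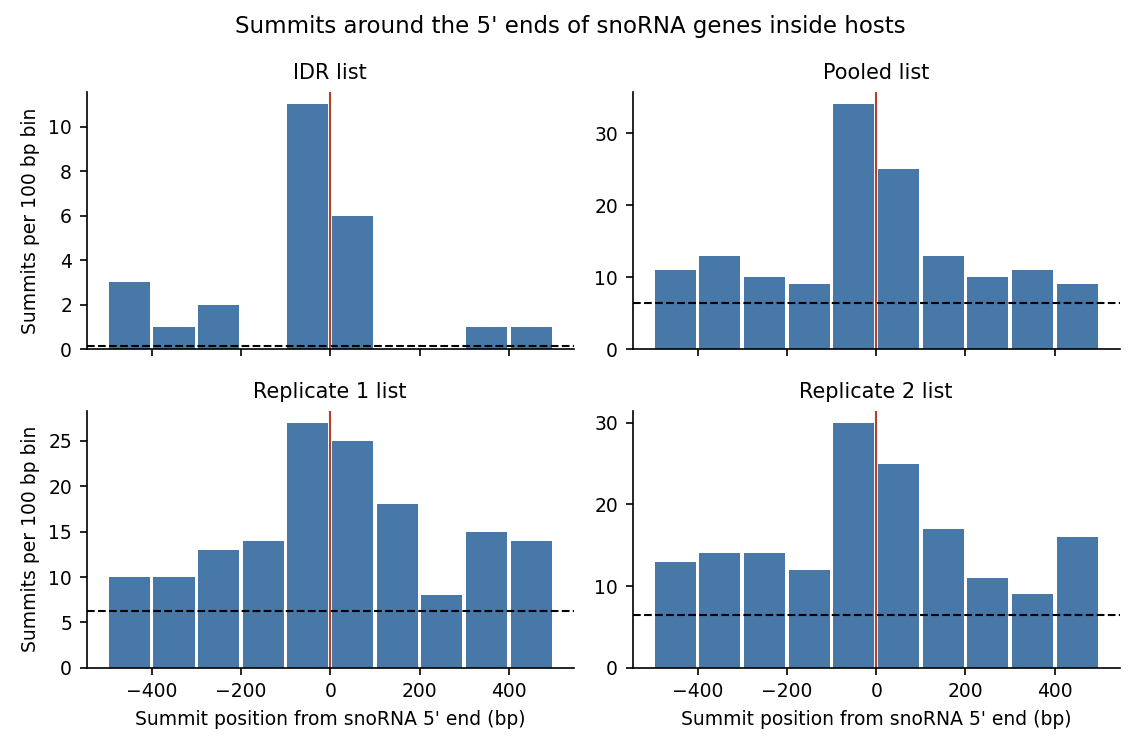
Number of summits per 100 bp bin (vertical axis) by position relative to the 5' end of the 216 snoRNA genes inside hosts (horizontal axis, bp, negative upstream, red line at the 5' end), in the IDR, pooled, replicate 1 and replicate 2 lists. The dashed line is the number that an even spread over the genome would give; the 2 bins at the 5' end are the highest in each list, with 11 and 6 summits in the IDR list.

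The 25 genes with an IDR summit gave 25 pairs of gene and summit at 23 regions, since C51F7.3 and C51F7.4 shared a region, as did C27H5.9 and C27H5.10. The summit was nearer to the 5' end of the snoRNA than to that of the host in 18 of 25 pairs, 72.0% (interval 52.4 to 85.7%). The median distance was 64 bp to the snoRNA and 1057 bp to the host. Pooled regions near the same kind of gene that did not pass IDR were nearer to the snoRNA in 113 of 120 pairs, 94.2%, but only 43 of these 120 (35.8%) lay within 100 bp of it, against 17 of 25 (68.0%) of the IDR pairs. Being nearer to the snoRNA therefore did not set IDR regions apart, as any summit within 500 bp of a snoRNA deep in its host is nearer to the snoRNA by construction. The IDR summit was upstream of the snoRNA 5' end in 17 of 25 pairs, 68.0%, and that of regions which did not pass in 60 of 120.

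The distance from host start to snoRNA separated the pairs. Where the host's 5' end was over 1000 bp from the snoRNA (149 genes), 13 genes had an IDR summit (8.72%), and in all 13 it lay within 100 bp of the snoRNA. Where the host's 5' end was within 1000 bp (67 genes), 12 genes had one (17.9%): 5 of the 12 summits were nearer to the snoRNA and 4 lay within 100 bp of it. Regions that did not pass IDR were nearer to the snoRNA in 26 of 33 pairs of this second class.

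**Figure D2:**
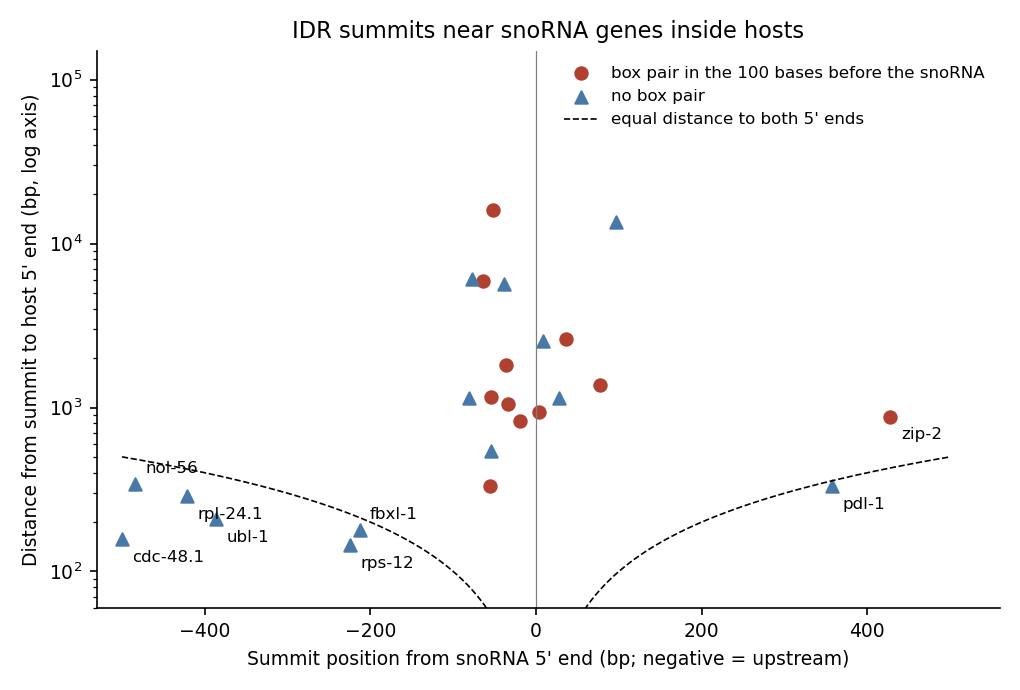
Distance from each IDR summit to the 5' end of the host gene (vertical log axis, bp) against its position from the snoRNA 5' end (horizontal axis, bp, negative upstream) for the 25 pairs; circles are snoRNA genes with a box pair in the 100 bases before them, triangles those without, and hosts are named for the 8 pairs over 100 bp from the snoRNA. Below the dashed line the host is nearer, as in 7 pairs, and 17 pairs stand in a narrow column within 100 bp of the snoRNA.

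The 17 pairs within 100 bp of the snoRNA involved 16 regions, with signals from 36.8 to 88.16 and a median of 50.1, against 45.6 over all nuclear IDR regions. Their summits lay from -81 to 96 bp of the snoRNA 5' end (median -36), and 11 of 17 were upstream, from -81 to -19. The host's 5' end was 333 to 16019 bp away, with a median of 1366 bp. A 5' end of any protein-coding gene lay within 500 bp of the summit in 2 of the 17, F55A11.10 and C27H5.9.

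Internal starts of host transcripts changed this for a few genes. Measured to the nearest 5' end of any annotated transcript of the host, 15 of these 17 summits were still nearer to the snoRNA. The exceptions were F07A11.15 in din-1, which encodes a partner of the nuclear receptor DAF-12, with a transcript start 43 bp from the summit, and F55A11.10 in F55A11.6, with one 47 bp from it. Over all 25 pairs the share nearer to the snoRNA was then 60%. C. elegans 5' ends are often those of trans-spliced RNAs, so an annotated start can lie downstream of where transcription begins.

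The strongest of the 17 was at ZK994.7, inside pxn-1, which encodes a peroxidasin of the extracellular matrix. The region chrV:8500355-8500724 had signal 88.16, and its summit lay 39 bp upstream of the snoRNA and 5651 bp from the start of pxn-1. It ranked 325 in replicate 1 (signal 18.6) and 56 in replicate 2 (signal 67.4). C27H6.5, inside unc-41, which encodes a stonin-like protein of synaptic vesicle recycling, followed on chromosome V with signal 59.89, 64 bp upstream of the snoRNA and 5903 bp from the host's start. It ranked 1116 in replicate 1 and 170 in replicate 2. F55A11.10 had signal 58.38 at -77, with ranks 412 and 206 in replicates 1 and 2. The ZK994.7 and F55A11.10 regions were thus in the top list of each replicate and the C27H6.5 region only in that of replicate 2.

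The region shared by C51F7.4 and C51F7.3 in frm-7, which encodes a FERM domain protein, had signal 56.09 and nearly equal ranks of 269 in replicate 1 and 267 in replicate 2. Its summit was 28 bp into C51F7.4 and 81 bp upstream of C51F7.3, and 1143 bp from the start of frm-7. C27H5.9, in the first intron of pdl-1 on the opposite strand, had signal 56.37, a summit at -56 from the snoRNA and 333 from the host's start, and ranks of 2245 and 161 in replicates 1 and 2. The same summit lay 358 bp from the 5' end of C27H5.10, the next snoRNA of that host.

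The widest gap between replicates was at M106.6, in an intron of mix-1, which encodes a condensin subunit. Its region chrII:10840080-10840449 had signal 53.86 and a summit 52 bp upstream of the snoRNA, 16019 bp from the start of mix-1. It ranked 11589 in replicate 1 (signal 4.14) and 144 in replicate 2 (signal 46.5). The summits of the 2 replicates were 2 and 3 bp from the IDR summit, so the place was the same in both while the standing within each list was not.

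D1046.6, in cfim-2, named for a cleavage factor of messenger RNA 3' ends, had signal 48.17 with the summit at 4, and ranks of 1502 and 276. Y43F8C.22, in Y43F8C.7, had signal 43.59 at -19, and ranks of 280 and 892. T04A8.17, in ppat-1, had signal 43.35 at -55, and ranks of 344 and 898. In each of these the rank in 1 of the replicates was outside its top list. W08G11.6, in W08G11.3, had signal 39.04 at 9, with ranks of 2810 and 670. F11A10.9, in rbm-34, which encodes an RNA-binding protein, had signal 38.72 at 77, with ranks of 2087 and 626. F07A11.15 had signal 36.83 at 96, with ranks of 260 and 2650.

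At C04G6.12, in the MAP kinase gene mpk-2 (signal 38.76, summit at -54), and T03F7.8, in the cuticulin-like gene cutl-18 (signal 38.7, summit at 36), replicate 1 had no region with a summit within 100 bp of the IDR summit, while replicate 2 had partners at ranks 296 and 876. Replicate 1 did have summits at these genes further along: at C04G6.12 one lay at 83 from the snoRNA 5' end, with rank 1955, and at T03F7.8 one lay at -89, with rank 292. These were the only 2 of the 23 regions without a partner in both replicate lists. Partners in both were found for 21 of 23 (91.3%), against 575 of 678 nuclear IDR regions (84.8%). Both partners were in the top lists for 7 of 23 (30.4%), against 228 of 678 (33.6%). With partners required within 50 bp, the 91.3% became 69.6%.

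Within the close group, the 16 regions had partners in replicate 1 in 14 cases, with ranks from 134 to 11589 and 7 in its top list. In replicate 2 all 16 had partners, with ranks from 56 to 2650 and 12 in its top list. Of all 678 nuclear IDR regions, 51% were in the top list of replicate 1 and 73.7% in that of replicate 2, so the close regions, at 43.8% and 75.0%, stood near the shares of nuclear IDR regions in general. The replicate 1 summit near T03F7.8 is not a partner by this rule and is not counted.

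**Figure D3:**
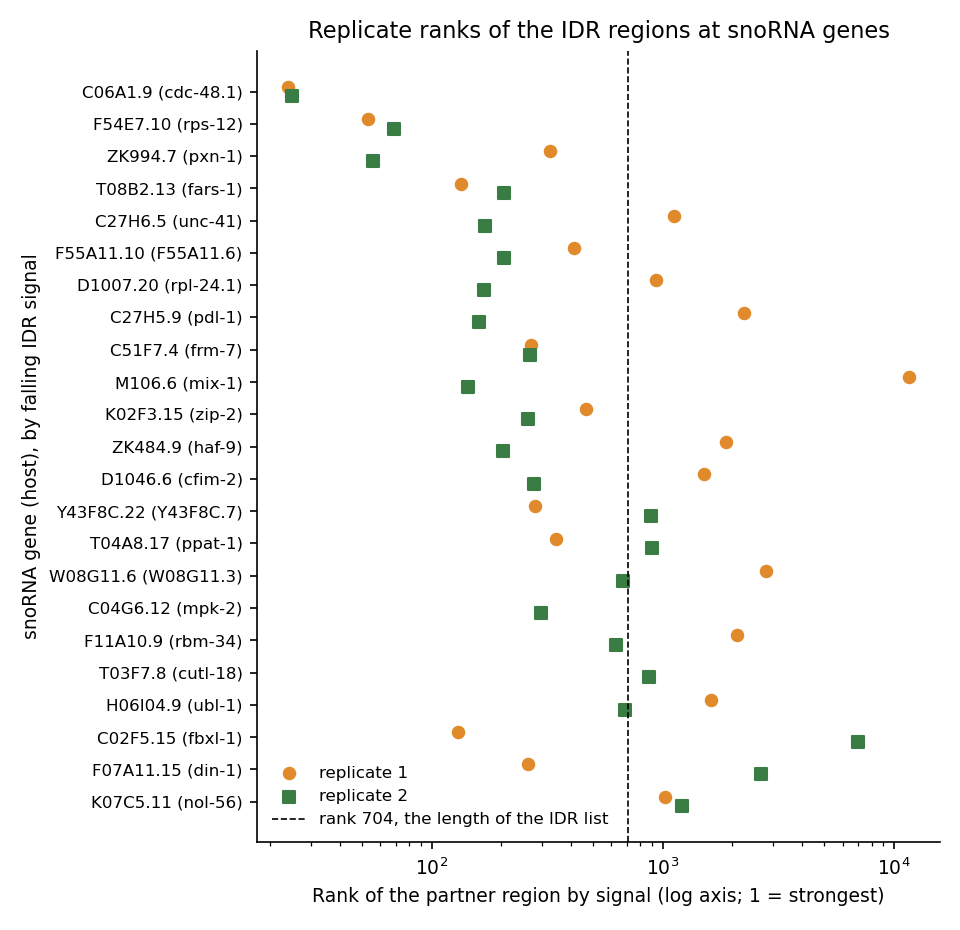
Rank by signal (horizontal log axis, 1 is the strongest) of the partner regions in replicate 1 (circles) and replicate 2 (squares) for the 23 IDR regions near snoRNA genes inside hosts, ordered down the page by falling IDR signal and named by the first snoRNA gene and its host. The dashed line marks the length of the IDR list; 7 regions lie left of it in both replicates, and C04G6.12 and T03F7.8 have no circle.

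The remaining 2 close genes, T08B2.13 and ZK484.9, lie on chromosome I. T08B2.13 is in fars-1, which encodes a subunit of phenylalanyl-tRNA synthetase; it had signal 62.57, a summit at -36, and ranks of 134 and 205. ZK484.9 is in haf-9, which encodes a half-type ABC transporter, on the opposite strand; it had signal 52.04, a summit at -34, and ranks of 1872 and 203.

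The other 8 pairs had summits over 100 and up to 500 bp from the snoRNA, and 7 of them were nearer to the host's 5' end. Among the 7 was C27H5.10 in pdl-1, which shared its summit with the close gene C27H5.9. That summit lay 333 bp inside the host. In 6 of the 8 pairs the summit was upstream of the host, and with transcript starts counted none of the 8 was nearer to the snoRNA. The snoRNA began a median of 159 bp after the host's 5' end, against 2040 bp over all 216 genes, and of 7 wholly intronic genes 6 were in the first intron. Hosts of this group were cdc-48.1, rps-12, rpl-24.1, ubl-1, fbxl-1, nol-56, pdl-1 and zip-2.

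The strongest of all 23 regions was the one before cdc-48.1, which encodes an AAA ATPase that unfolds ubiquitylated proteins. The summit was 157 bp upstream of cdc-48.1 and exactly 500 bp upstream of C06A1.9, at the edge of the distance used. It had signal 158.6, and ranked 24 in replicate 1 (signal 42.5) and 25 in replicate 2 (122.0). The replicates' own summits were 39 and 17 bp from it and fell beyond 500 bp of the snoRNA. Among the ribosomal protein genes, the region before rps-12 had signal 98.34 with the summit 145 bp upstream of the host and 225 bp upstream of F54E7.10, and ranks of 53 and 69. That before rpl-24.1 had signal 56.53, 287 bp upstream of the host, and ranks of 937 and 168. In these 3 the host was the nearer of the pair.

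The region before ubl-1, which encodes a ubiquitin-like protein fused to a small-subunit ribosomal protein, had signal 38.58, 210 bp upstream of the host and 386 bp upstream of H06I04.9, and ranks of 1610 and 686. The region before fbxl-1, an F-box gene, had signal 37.77, 180 bp upstream of the host and 213 bp upstream of C02F5.15, and ranks of 130 and 6996. C02F5.15 also lies inside rfs-1. The region before nol-56 had signal 36.83, 342 bp upstream of the host and 484 bp upstream of K07C5.11, and ranks of 1022 and 1211. nol-56 encodes a core protein of box C/D particles and hosts 4 snoRNA genes, more than any other host; the other 3 had no IDR summit. Besides C27H5.10, an exception in this group was K02F3.15 in zip-2, a bZIP transcription factor gene. Its summit (signal 53.53, ranks 465 and 261) lay 428 bp downstream of the snoRNA 5' end and 881 bp from the host's, but 225 bp from another transcript's start.

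The close group often had a tRNA-like box pair just before the snoRNA. The letters searched were GNNNAGTGG for box A, followed after 20 to 60 bases by GTTCGANNC for box B, with at most 1 mismatch in each, on the strand of the snoRNA in the 100 bases before its 5' end. These letters were chosen after the sequences at the IDR summits had been seen, so counts at those summits are a description. A pair was found before 24 of the 216 genes (11.1%), against 9.23% of the 130 snoRNA genes outside hosts, 0.285% of protein-coding genes and 0.521% of 3644 other non-coding genes inside hosts other than tRNA genes. In the first 100 bases of nuclear tRNA genes it was found in 94.9% of 612. In the 216 genes, the other strand of the same stretch gave 0.463%, the 100 bases further upstream 0.926% and the first 100 bases of the snoRNA gene 0.926%.

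Box A began between -95 and -43 relative to the snoRNA 5' end (median -56.5, quartiles -63.2 and -54), where the search allowed -100 to -38. Box B began between -64 and -9 (median -16.5, quartiles -19.2 and -12), where the search allowed -71 to -9. All 24 genes with the pair were wholly intronic, against 172 of all 216 (79.6%), and 17 of 24 were on the host's strand, against 183 of 216 (84.7%). RefSeq annotated a tRNA pseudogene in the stretch before 3 of the 216 genes: T08B2.13 and D1046.6, which had the box pair and an IDR summit, and F19H8.6 in mltn-9, which had neither. None of the 24 stretches occurred a further time in the genome as an exact copy.

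Of the 24 genes with the box pair, 11 had an IDR summit within 500 bp (45.8%, interval 27.9 to 64.9%), against 14 of 192 without it (7.29%, interval 4.39 to 11.9%). Within 100 bp the counts were 10 of 24 (41.7%) with the pair and 7 of 192 (3.65%) without. Outside hosts, 6 of 12 snoRNA genes with the pair had an IDR summit (50%), against 17 of 118 without (14.4%). Nuclear tRNA genes did not share the high value. The pair was in the first 100 bases of 94.9% of 612 tRNA genes, yet 7.19% had an IDR summit within 500 bp. That is close to the 7.29% of snoRNA genes inside hosts without the pair and above the 1.66% of protein-coding genes. Exact copies in the genome were not counted for tRNA genes. Their share is therefore not read as a result about the pair. In the top list of replicate 2 the share was 41.7% with the pair and 5.21% without, and in that of replicate 1 it was 20.8% with the pair and 6.77% without. The share with the pair was thus lower in replicate 1 than in replicate 2. Because the box letters were chosen after the sequences at IDR summits had been seen, the contrast with and without the pair was partly built in. All of these shares are a description, and none is a test of the box pair.

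In the longer lists the replicates were closer to each other. Pooled summits within 500 bp were found at 22 of 24 genes with the pair (91.7%) and 50.5% of those without. Summits within 100 bp were found at 18 of 24 genes with the pair (75.0%) in each of the pooled, replicate 1 and replicate 2 lists. Without the pair the shares were 21.9% in the pooled list, 17.7% in replicate 1 and 19.3% in replicate 2. With partners taken within 100 bp of the IDR summit, 8 of the 10 close IDR regions with the pair ranked higher in replicate 2 or had a partner there only; without the pair this held for 4 of 6. T03F7.8 is counted among the 8, although the replicate 1 summit at -89 from its 5' end ranked higher than its partner in replicate 2. No value here bears on why the replicates ranked these regions differently, and the cause was not tested.

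**Figure D4:**
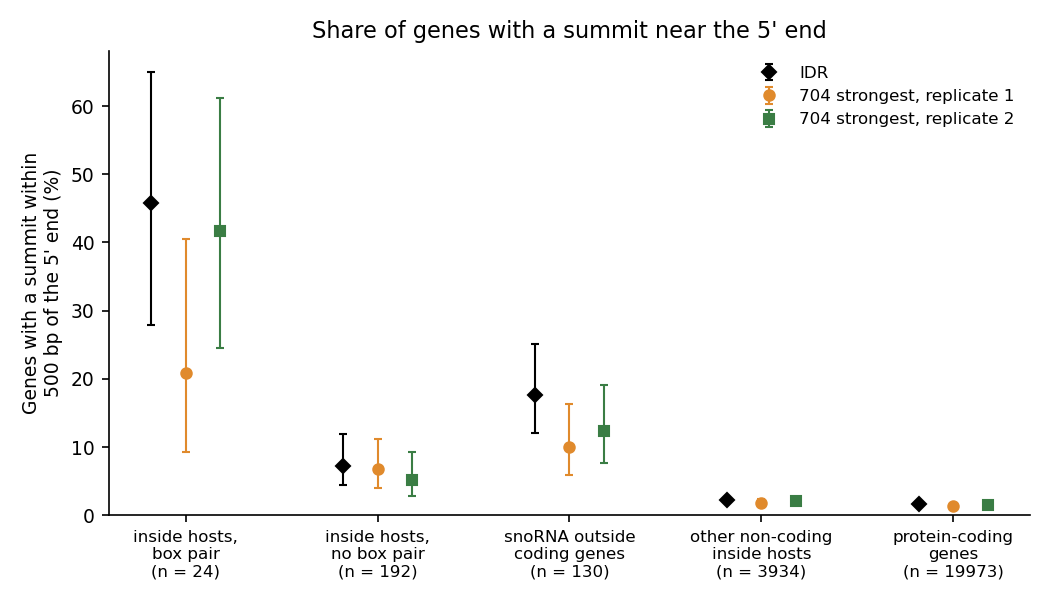
Share of genes with a summit within 500 bp of the 5' end (vertical axis, %) for snoRNA genes inside hosts with and without the box pair, then snoRNA genes outside protein-coding genes, other non-coding genes inside hosts and protein-coding genes, in the IDR list (diamonds), the top list of replicate 1 (circles) and that of replicate 2 (squares). Bars are Wilson 95% intervals for counting error. Genes with the pair are highest in each list, at 45.8% in the IDR list and 20.8% in replicate 1. The box letters were chosen after the sequences at IDR summits had been seen, so the split by box pair is a description.

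The summit lay between the start of box A and the end of box B in 7 of the 10 close genes with the pair. In the sequences printed above, this was so for C27H6.5, C27H5.9, M106.6, Y43F8C.22 and C04G6.12, while the summits of D1046.6, F11A10.9 and T03F7.8 lay past box B, inside the snoRNA gene. M106.6 and Y43F8C.22 matched both boxes with 0 mismatches. K02F3.15 had the pair, but its summit was 428 bp further on.

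The 13 genes with the pair and no IDR summit were mostly candidates. Of them, 11 had a pooled summit within 500 bp, with signals from 10.5 to 33.8, all under the 35.9 at which the IDR list ended. The strongest was C10C6.8 in catp-8, at signal 33.8 and -71. B0250.19 in the ribosomal protein gene rpl-2 had no summit in any list, and T23B12.13 in mrps-2, a mitochondrial ribosomal protein gene, had one only in replicate 1, at rank 4100.

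**Figure D5:**
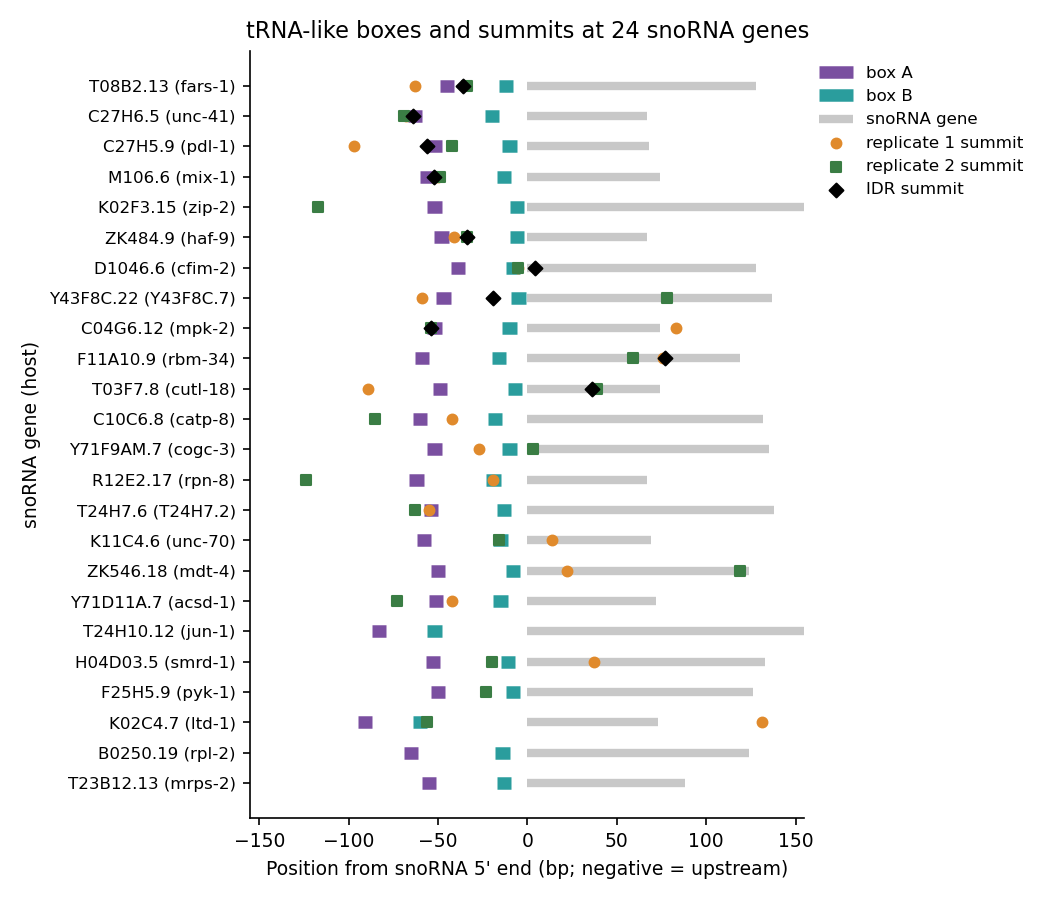
Positions (horizontal axis, bp from the snoRNA 5' end, negative upstream) of box A, box B, the snoRNA gene and the summits of replicate 1, replicate 2 and the IDR list within 150 bp, for the 24 snoRNA genes with the box pair. Genes with an IDR summit are at the top and the others below, each set by falling pooled signal; 7 IDR summits lie between the start of box A and the end of box B.

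Just below the limit of the IDR list came 5 further genes: Y24D9A.9 in rpl-7A (pooled signal 35.4), C05D2.15 in madf-11 (35.2), C10C6.8 (33.8), Y38F2AR.14 in Y38F2AR.12 (33.4) and F39B2.14 in tmem-107 (32.3). At Y24D9A.9 and F39B2.14 the host was nearer, with summits 81 and 27 bp upstream of it. At the other 3 the summit lay 26 to 71 bp upstream of the snoRNA. The members just inside the limit, F07A11.15 and K07C5.11, both had signal 36.83, close to the 35.4 of the first gene outside.

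The 6-mer GACGCA, searched on both strands within 50 bp of the summit because it is more frequent at IDR summits over the genome than at regions that did not pass, was in 1 of the 23 regions near these genes (4.35%, interval 0.772 to 21.0%), that of M106.6. It was in 16.2% of 678 nuclear IDR regions and in 2.91% of nuclear pooled regions that did not pass. The interval of the 23 regions included both of these shares. Within 100 bp it was in 3 of the 23.

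The snoRNA genes themselves were of both classes as far as 3' ends show. Box H/ACA RNAs end in ACA followed by 3 bases, and box C/D RNAs carry CTGA, box D, near the 3' end. Over all 216 genes 48 ended in ACANNN (22.2%), 49 had CTGA in the last 15 bases (22.7%) and 124 had neither (57.4%), so the annotated 3' end assigned most to no class. Some genes, F25H5.9 in pyk-1 among them, had both ends and are in both counts. Of the 17 close genes, 5 ended in ACANNN, 6 had CTGA and 6 had neither. Gene lengths ran from 54 to 325 bases with a median of 127. Exactly 1 of the 216 had another exact copy in the genome, and none of the 25 with an IDR summit did.

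Of the 188 hosts, 24 held more than 1 of these snoRNA genes. The host's own 5' end had an IDR summit within 500 bp at 16 hosts (8.51%, interval 5.31 to 13.4%), and a pooled summit at 110 (58.5%), against 1.66% and 28.6% of protein-coding genes. Of the 110 with a pooled summit, 16 had one that passed IDR (14.5%), against 5.8% of protein-coding genes. At 7 of the 16 the summit or another one was also within 500 bp of a snoRNA gene: cdc-48.1, fbxl-1, nol-56, pdl-1, rpl-24.1, rps-12 and ubl-1. For pdl-1 it was the summit 56 bp upstream of C27H5.9, which lay 333 bp inside the host. At the other 9 (eef-1G, fbxl-2, hsp-1, iff-2, nap-1, rpl-15, rpl-6, top-2 and wwp-1) no snoRNA gene had one.

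Hosts were also grouped by family. Ribosomal protein genes made up 13 hosts with 19 of the 216 snoRNA genes; 4 of the 13 hosts (rpl-6, rpl-15, rps-12 and rpl-24.1) had an IDR summit at their own start, against 16 of all 188. Of the 19 snoRNA genes 2 had an IDR summit within 500 bp (10.5%), against 11.6% of all 216. None had one within 100 bp (interval 0 to 16.8%), against 7.87% of all 216. Translation factor genes made up 3 hosts with 5 snoRNA genes; 2 of these hosts, eef-1G and iff-2, had an IDR summit at their start, and none of the 5 snoRNA genes had one. Genes for chaperones and AAA ATPases made up 3 hosts with 4 snoRNA genes; 2 of these hosts, hsp-1 and cdc-48.1, had one at their start, and 1 snoRNA gene had one within 500 bp. Oxidative phosphorylation genes hosted none. With 3 hosts each, the translation factor and chaperone families had an interval of 20.8 to 93.9% for the hosts, against 8.51% of all 188. For their snoRNA genes within 500 bp the intervals were 0 to 43.4% and 4.56 to 69.9%, which include the 11.6% of all 216.

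A mixed list of genes for snoRNA-bound proteins, ribosomal RNA processing and nucleolar proteins, and factors of small nuclear RNA transcription was looked up at the genes' own starts. Of 31 names listed, 28 were matched, to 26 genes, and 3 of these had an IDR summit within 500 bp of their start (11.5%, interval 4.0 to 29.0%), against 1.66% of protein-coding genes. A pooled summit lay at 17 of 26 (65.4%), against 28.6%. The 3 were pro-1, a gene of ribosomal RNA processing (signal 61.6, summit at -333, ranks 4940 and 91 in replicates 1 and 2), fib-1, which encodes fibrillarin, the methyltransferase of box C/D particles (signal 40.2, summit at -84, ranks 426 and 1278), and nol-56, described above. dkc-1, which encodes the pseudouridine synthase of H/ACA particles, lay just outside the IDR list with pooled signal 34.9.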

How the data were processed

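ChIP-seq regions of 2 biological replicates were taken as deposited, in the ce11 build per the labels. The signal of each region and its summit offset (a base position) are the authors' values per the deposited lists; for the caller, aligner and IDR threshold the sources used here gave no names. The deposited inventory text states that replicate lists and the pooled list were called against a control and were input to IDR. Lists in ce10 were not used here.

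Gene models were Ensembl release 115, with sequence from RefSeq WBcel235; no region ran past a chromosome end. Where several hosts held a snoRNA gene (4 genes), the host with the nearest 5' end was used. Partners of a region had the nearest summit within 100 bp. The finding of summits by distance, the cutting of flanks and the search for box pairs were tested on simulated data. The other steps were not. The tools were scipy 1.17.1, pandas 2.3.3, matplotlib 3.10.9 and numpy 2.4.6 under Python 3.11.15. With 1 group, no contrast was tested, and shares are set beside those over all genes of a class. Signal sizes of different lists were not compared.

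Named were all snoRNA genes with an IDR summit within 500 bp, the next 5 by pooled signal, and snoRNA pathway genes with an IDR summit; other genes were named after their values were seen. The genes and lists were chosen with earlier results of these data known. Alternatives were distances of 100, 250 and 1000 bp, the strongest IDR regions alone, each replicate alone, strand and intron limits, transcript starts, whole gene bodies, partner distance and box mismatches.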

Additional observations from a re-analysis of the deposited data

How the results depend on the processing

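Of 47 values under other settings, 39 stayed within the interval or within 1.5 times the main value. With a distance of 250 bp 89.5% of IDR summits were nearer to the snoRNA, against 72.0% at 500 bp, and at 1000 bp 38 genes had an IDR summit in place of 25. With the IDR list limited to its strongest 50%, 15 genes had one, or 12.6% of those with a pooled summit. Partners within 50 bp were found for 69.6% of regions. At 100 bp, genes without the box pair had an IDR summit in 3.65%. Each of these settings changed a distance or the length of the list. Leaving out replicate 2 also moved values outside the main intervals. The share of summits nearer to the snoRNA was then 88.9%, against an interval of 52.4 to 85.7%. The share of genes with the box pair that had a summit was then 20.8%, against an interval of 27.9 to 64.9%.

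With 1 replicate left out, and the top list of the other in place of the IDR list, 18 to 20 genes had a summit, 15.1 to 16.8% of those with a pooled summit. Of the summits 80.0 to 88.9% were nearer to the snoRNA and 72.2 to 75.0% were upstream of it. The share was 20.8 to 41.7% with the box pair, the lower value without replicate 2, and 5.21 to 6.77% without the pair; the cause was not tested. In the IDR list, with box A exact, the share was 63.6% with the pair and 8.78% without it. With 2 mismatches allowed in box A, 35 genes had the pair and 16 of them had an IDR summit (45.7%), against 9 of 181 without it (4.97%). The number of genes with the pair thus depends on the mismatch limit. The shares with and without the pair stayed within the intervals of the main setting at both limits.

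No paired analysis was possible because the 2 replicates form 1 group. The depth is unknown, and the pooled list, IDR list and replicate lists share reads, so the lists are not independent. Genes that share a host or a region are not independent either.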
